A study of Mus musculus with 2 samples.

Results

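Apolipoproteins are the protein part of lipoproteins, the particles that carry fat and cholesterol in blood. The genes described here are 8 apolipoprotein genes (Apoa1, Apoa2, Apob, Apoc1, Apoc3, Apoe, Apoh and Apom) with Mttp and Lcat, a set of 10 of the 31947 genes and unnamed transcripts on the array. They were taken by the gene name printed in the scanner file of the wild-type array, leaving out control spots, and by the same spots on the ob/ob array. The set has 12 probes and 30 spots, all present on both arrays.

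The samples were primary liver sinusoidal endothelial cells, the fenestrated lining cells of the liver capillaries. There was 1 ob/ob and 1 wild-type (WT) sample, both from males aged 8 weeks. An ob/ob animal lacks functional leptin, the satiety hormone of fat cells, and becomes obese with a fatty liver. Cells of both genotypes came from collagenase-digested livers and then spent a night in DMEM with fetal bovine serum, and no further purification step is given in the sources used here. Each genotype had 1 array, so no difference below has a replicate check, no test was run and no p-value is given.

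ApoB is the large structural protein of very-low-density lipoprotein (VLDL), and Mttp encodes the transfer protein that loads lipid onto it in the endoplasmic reticulum. ApoA-I and apoA-II are the main proteins of high-density lipoprotein (HDL), on which Lcat esterifies cholesterol. The C apolipoproteins and apoE exchange between particles and steer lipolysis and receptor uptake. In liver these genes are known chiefly from hepatocytes, and Apoe and Apoc1 also from macrophages.

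Of the 43020 non-control spots, 27873 (64.8%) were well above background on the ob/ob array and 25224 (58.6%) on the WT array. The 75th percentile of the processed intensity was 1430 on the ob/ob and 989 on the WT array, and each signal below is given as a multiple of that value for its own array, called the scaled signal. Differences are ob/ob minus WT on the log2 scale. Among 18164 genes measured on both arrays the median difference was -0.12. A difference of 2-fold or more was seen upward in ob/ob cells for 1055 genes (5.81%) and downward for 417 (2.3%). Scaling on the array median moved the median of all genes to -0.40 and the counts to 766 and 981. The known spread is technical. Single spots of 259 probes printed 10 times differed between arrays with a median SD of 0.05, a difference had a median error-model SD of 0.20 from the scanner software, and the SD between probes of the same gene was 0.33 in 3664 genes. The spread between mice or preparations is in none of these.

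Of the 10 genes, 9 were measured on both arrays and Lcat on the ob/ob array only. Apob, Apoc3, Apoh, Apoa2 and Apoc1 were at least 2-fold higher in ob/ob cells, which is 5 of 9, beside 5.81% of all genes. Apoa1, Apoe, Apom and Mttp were within 2-fold, and 0 of 9 were at least 2-fold lower, beside 2.3% of all genes. The median difference of the 9 was 1.61, with a range of 0.005 (Mttp) to 3.65 (Apob). In a bulk sample, more cells of a type and more RNA per cell cannot be told apart, and with 1 array per genotype neither can mouse, preparation and genotype.

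**Figure D1:**
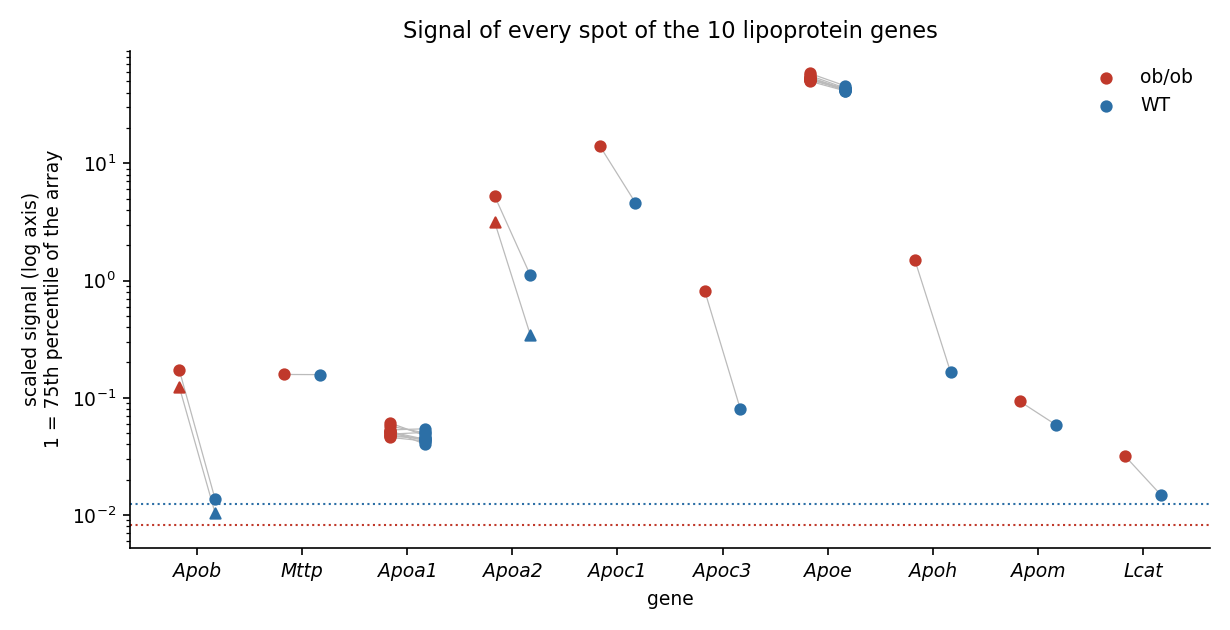
Scaled signal (log axis, 1 is the 75th percentile of the array) of every spot of the 10 genes on the ob/ob array (red, left) and the WT array (blue, right), with lines joining the same spot. Circles are the brighter probe of a gene and triangles the other one, and dotted lines mark the dimmest signal well above background on each array. On the WT array Apob lies close to the dotted line, while the 10 spots of Apoa1 overlap between the arrays.

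Apob, the structural protein of VLDL, had the largest difference of the set. Its brighter probe had a scaled signal of 0.171 in ob/ob cells and 0.0137 in WT cells, a difference of 3.65. Its other probe had 0.123 in ob/ob cells and 0.0104 in WT cells, where it was not well above background. For that probe only an approximate bound of at least 9.86-fold is given. The brighter probe ranked 28 of 18164 genes by its difference. Its WT intensity of 13.5 lay close to 12.3, the dimmest intensity well above background on that array, so the size of the difference is poorly bounded. With normexp background correction, which adds an offset of 50 to every signal, the Apob difference was 1.36 after quantile normalization and 0.36, under 2-fold, after scaling on the 75th percentile. The probes lie 10497 bases apart on chromosome 12 (mm9), and their sequences are shown because the largest difference of the set rests on them.
Apob probe at chr12:8012697-8012756, + strand: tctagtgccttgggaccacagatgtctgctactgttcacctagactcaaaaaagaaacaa
Apob probe at chr12:8023194-8023253, + strand: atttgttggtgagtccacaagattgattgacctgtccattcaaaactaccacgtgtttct

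Mttp, whose product Apob needs for particle assembly, did not share this difference. Its scaled signal was 0.158 in ob/ob cells and 0.158 in WT cells, a difference of 0.005 with an error-model SD of 0.21. It ranked 6699 of 18164 genes, and the genes at a like signal level had a median difference of 0.03. The sign of the Mttp difference depended on the processing, with -0.63 to 0.005 over 9 other settings. Its probe lies at chr3:137753868-137753927 (mm9).

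The probes of the HDL genes Apoa2 and Apoa1 gave different results, and that of Apoa1 was dim. Apoa2 was measured by 2 probes 125 bases apart on chromosome 1. The probe at chr1:173156445-173156504 had a scaled signal of 5.27 in ob/ob cells and 1.11 in WT cells, a difference of 2.25. The probe at chr1:173156320-173156379 had 3.17 and 0.344, a difference of 3.20. Both place Apoa2 more than 2-fold higher in ob/ob cells, but they differ by more than the error-model SD of 0.20, so the size depends on the probe. The first of them holds the polyadenylation hexamer AATAAA, as do the single probes of Apoc1 and Apoc3, which makes 3 of the 12 probes, beside 12.6% of all 39429 probes.

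Apoa1, which encodes the main HDL protein, was near its WT level by 1 dim probe. The mean intensity of that probe was 73.9 on the ob/ob array and 45.7 on the WT array. How well it reports Apoa1 RNA was not tested. The probe was printed 10 times. Its scaled signals were 0.0459, 0.0510 and 0.0612 (lowest, median, highest) on the ob/ob array and 0.0402, 0.0447 and 0.0544 on the WT array. The spots of the arrays overlap. The difference was 0.16 with an SD of 0.15 over the 10 spots, but its sign is not settled: array-median scaling gave -0.12, and normexp scaled on the 75th percentile gave -1.13. The probe lies at chr9:46037921-46037980 (mm9), and its place along the transcript was not analysed here. Its sequence is shown with the other Apoa2 probe because the probes of the HDL genes diverged.
Apoa1 probe, + strand, 55% G and C: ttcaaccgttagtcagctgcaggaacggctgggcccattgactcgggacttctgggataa
Apoa2 probe at chr1:173156320-173156379, + strand, 45% G and C: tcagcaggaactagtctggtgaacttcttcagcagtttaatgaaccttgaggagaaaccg

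Apoc3, an inhibitor of lipoprotein lipase and of particle uptake, is the gene next to Apoa1, and its probe did not follow the dim Apoa1 probe. Its scaled signal was 0.818 in ob/ob cells and 0.0798 in WT cells, a difference of 3.36 or 10.3-fold, with an error-model SD of 0.21. Its probe at chr9:46041134-46041193 starts 3213 bases from that of Apoa1 (mm9). The Apoc3 difference was smaller with normexp, at 2.20 after quantile normalization and 1.82 after scaling on the 75th percentile. Farther along the same cluster, Apoa4 and Apoa5, which code for apolipoproteins of triglyceride-rich particles, were measured in ob/ob cells alone, with bounds of at least 2.01-fold for Apoa4 and at least 3.58-fold for Apoa5. A bound of this kind sets the brighter signal against the higher of the dimmest measured signal and the gene's own signal on the other array. Signals not well above background can exceed the dimmest measured one, as that of Lcat did on the WT array (0.0149 beside 0.0125). Every bound given here as at least some fold is therefore approximate. The protein-coding genes that flank the cluster, Sik3 and Zpr1, differed by -0.27 and -0.43.

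The Apoe and Apoc genes form a second cluster, on chromosome 7. With the processing used here the differences grew smaller along the row, and this order was not worked out under the other settings. Apoc2, the activator of lipoprotein lipase, had a scaled signal of 2.20 in ob/ob cells and 0.242 in WT cells, a difference of 3.18. Apoc4 had 0.108 and 0.0171, a difference of 2.65. Its WT signal lay close to 0.0125, the dimmest scaled signal well above background on that array. The size of the Apoc4 difference, and so its place in the row, is poorly bounded. Apoc1, which modulates lipid enzymes on the particle surface, had 14.1 in ob/ob cells and 4.61 in WT cells, a difference of 1.61 or 3.06-fold. Apoe, a ligand of lipoprotein receptors, stands next and was within 2-fold. The flanking genes Clptm1 and Tomm40 differed by -0.14 and -0.31. Apoc2 and Apoc4 also share a read-through gene in the RefSeq table, Gm44805, which was not on the array by that name.

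Apoe was strongly expressed on both arrays. Its 10 spots gave scaled signals of 50.1, 52.8 and 58.5 (lowest, median, highest) in ob/ob cells and 41.4, 42.7 and 45.6 in WT cells. No spot of one array overlapped those of the other. The difference was 0.32 with an SD of 0.04 over the 10 spots, which are repeats of 1 RNA sample. Genes at its signal level, in the same of 20 bins, had a median difference of -0.42, so Apoe stood 0.74 above them. No spot was saturated. Over the 9 other settings the Apoe difference ran between 0.04 and 0.74. Its probe at chr7:20281732-20281791 (mm9, minus strand) starts 6901 bases from that of Apoc1 and is shown as the brightest spot set of the 10 genes.
Apoe probe, 55% G and C: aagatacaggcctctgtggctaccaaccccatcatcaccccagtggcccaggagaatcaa

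**Figure D2:**
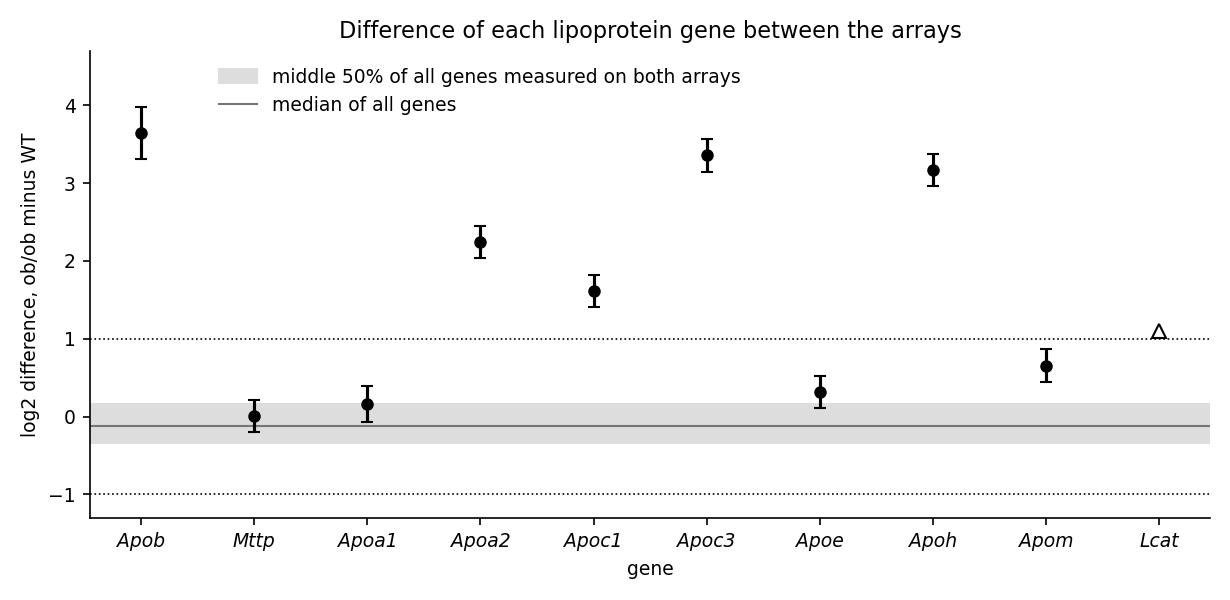
Log2 difference, ob/ob minus WT, of each of the 10 genes, with bars of 1 SD from the scanner's error model, which cover the scan only. The open triangle is the bound for Lcat, which is the plain ratio of its signals. The grey band runs between the quartiles of all genes measured on both arrays, and dotted lines mark 2-fold. Apob, Apoc3, Apoh, Apoa2 and Apoc1 lie above the upper dotted line, and Mttp and Apoa1 lie in the grey band.

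The remaining genes encode plasma proteins bound to lipoproteins or lipid. Apoh, or beta-2-glycoprotein I, a phospholipid-binding plasma protein, had a scaled signal of 1.497 in ob/ob cells and 0.166 in WT cells, a difference of 3.17 or 9.02-fold. With normexp the Apoh difference was 2.40 after quantile normalization and 2.17 after scaling on the 75th percentile. Its probe lies at chr11:108275610-108275669 (mm9). Apom, the HDL protein that carries sphingosine-1-phosphate to endothelium, had 0.0930 in ob/ob cells and 0.0590 in WT cells, a difference of 0.66, and -0.63 with normexp and the 75th percentile. Its probe lies at chr17:35267047-35267106 (mm9). Lcat, the enzyme that esterifies HDL cholesterol, had 0.0319 in ob/ob cells and 0.0149 in WT cells, where it was not well above background. The bound for Lcat was the plain ratio of these 2 signals, 2.14-fold brighter in ob/ob cells. Its log2 error-model SD was 0.46, so a difference under 2-fold is not excluded. The bound was under 2-fold with array-median scaling, quantile normalization or normexp. Its probe lies at chr8:108463857-108463916 (mm9).

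Each difference was also set against genes of like brightness. The median over genes at the signal level of each of the 9 genes lay between -0.42 (Apoe) and 0.08 (Apom). Centred on these medians, the same 5 genes were at least 2-fold higher, from 1.83 for Apoc1 to 3.61 for Apob. The local background at the 30 spots was 51 to 67 on the ob/ob array and 56 to 70 on the WT array, beside array medians of 60 and 63, and none of the spots was marked as an outlier.

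**Figure D3:**
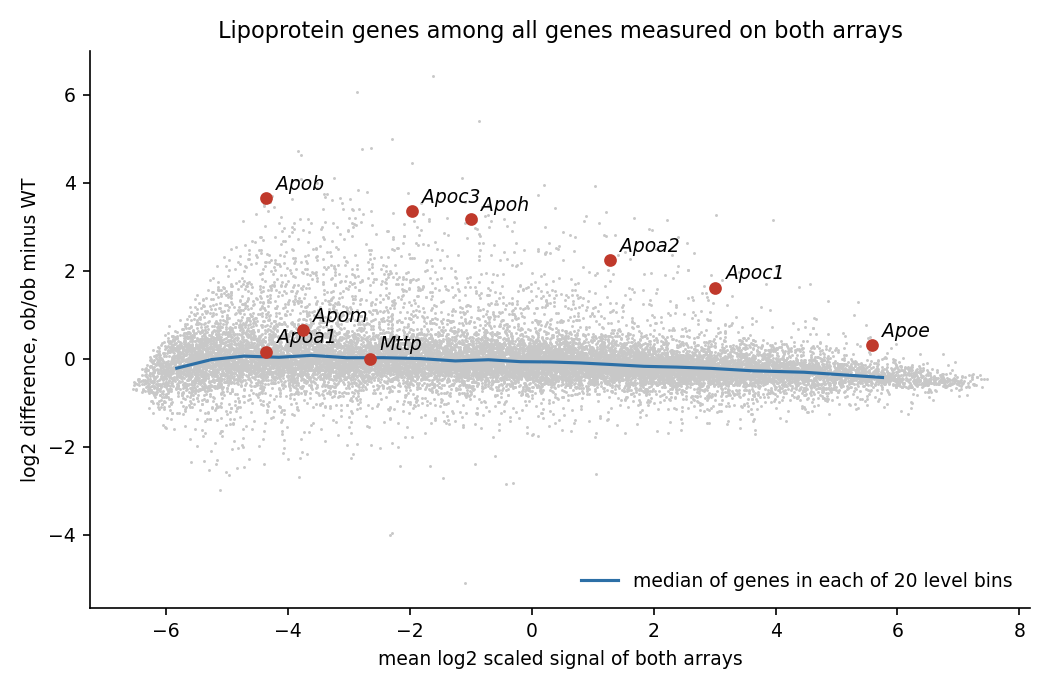
Log2 difference, ob/ob minus WT, against the mean log2 scaled signal of both arrays for 18164 genes (grey), with the 9 genes measured on both arrays in red and the median in each of 20 level bins as a blue line. Apob, Apoc3, Apoh, Apoa2 and Apoc1 stand above the cloud, Mttp and Apoa1 lie near the blue line, and Apoe lies 0.74 above it.

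Promoter sequence was compared because genes of the set split into a higher and a level group. RefSeq windows of 250 bases before to 50 after the transcript start (GRCm38.p6) were given for 8 of the 10 genes, other than Apoc1 and Apoc3, in 11 windows. Both strands were searched. The HNF4A letters CAAAGTCCA, found in 0.475% of all 32851 windows, and the C/EBP letters TTGCGCAA and TTNCGCAA, in 0.183% and 0.798%, were in none of the 11. The HNF4A half-site AGGTCA was in windows of Apoa2 and Apoh (16.3% of all windows), and the TATA box letters TATAAA in windows of Apoa2, Apob and Apoe (13.6%). The forkhead letters TGTTTAC or TGTTTGC were in 5 of the 11 windows, of Apoa1, Apoa2, Apob, Apoe and Apoh, beside 8.48% of all windows. The forkhead letters were thus in windows of 3 of the genes at least 2-fold higher and of 2 within 2-fold, and in none of Apom, Lcat and Mttp. A match is a string of letters and not a bound site. The windows of 3 higher genes and of Apoa1 are shown, with forkhead letters of either strand in capitals, which begin 121 bases before the start in Apob, 77 in Apoa2, 71 in Apoh, and 88 and 75 in Apoa1.
Apob, chr12:7977427-7977726, + strand: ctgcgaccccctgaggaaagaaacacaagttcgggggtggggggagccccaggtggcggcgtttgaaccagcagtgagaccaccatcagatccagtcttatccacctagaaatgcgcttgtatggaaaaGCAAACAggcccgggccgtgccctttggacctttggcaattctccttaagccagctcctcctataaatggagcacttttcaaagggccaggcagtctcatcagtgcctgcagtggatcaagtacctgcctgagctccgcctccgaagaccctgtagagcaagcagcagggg
Apoa2, chr1:171224804-171225103, + strand: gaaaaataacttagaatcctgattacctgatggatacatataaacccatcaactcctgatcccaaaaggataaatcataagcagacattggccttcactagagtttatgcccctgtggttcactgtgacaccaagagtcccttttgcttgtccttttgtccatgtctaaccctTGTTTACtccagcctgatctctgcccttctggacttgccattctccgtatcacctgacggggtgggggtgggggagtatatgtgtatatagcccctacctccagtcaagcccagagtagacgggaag
Apoh, chr11:108395047-108395346, + strand: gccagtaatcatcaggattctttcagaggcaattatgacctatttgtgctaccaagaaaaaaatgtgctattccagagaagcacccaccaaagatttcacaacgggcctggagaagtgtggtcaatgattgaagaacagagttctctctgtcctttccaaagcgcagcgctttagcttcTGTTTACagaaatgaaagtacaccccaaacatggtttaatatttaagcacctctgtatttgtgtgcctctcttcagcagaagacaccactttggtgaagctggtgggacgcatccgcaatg
Apoa1, chr9:46228380-46228679, + strand: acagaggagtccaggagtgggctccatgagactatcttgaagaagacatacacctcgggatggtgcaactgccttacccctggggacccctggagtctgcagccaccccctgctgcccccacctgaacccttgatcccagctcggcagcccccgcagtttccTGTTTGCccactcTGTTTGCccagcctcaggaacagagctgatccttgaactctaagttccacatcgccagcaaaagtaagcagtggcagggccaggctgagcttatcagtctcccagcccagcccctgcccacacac

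Other apolipoprotein genes, listed together with the enzyme genes Pon1 and Pon3, were split in the same manner. Of 19 on the array, 11 were measured on both, with 5 at least 2-fold higher, 1 lower, 5 within 2-fold and a median of 0.54, against -0.12 for all genes. Besides Apoc2, the antioxidant HDL enzyme Pon1 was 3.05 higher, the lipid transfer inhibitor Apof 2.91 and clusterin, Clu, 2.77. Saa3, a serum amyloid A of inflamed tissue, was brighter in ob/ob cells by at least 19.7-fold. Apod, a lipocalin and not a relative of the exchangeable apolipoproteins, was lower at -1.66, with scaled signals of 0.0421 in ob/ob cells and 0.133 in WT cells. Apool, a mitochondrial protein despite its name, was among the brightest of the list and differed by -0.32. With normexp and the 75th percentile the count of higher genes was 2.

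Genes that build and export apoB particles were mostly within 2-fold, as were most genes of the array. Of 25 genes of lipoprotein secretion, 23 were measured on both arrays, with a median of -0.006. Of these, 21 were within 2-fold, 2 at least 2-fold higher and 0 lower, beside 5.81% higher and 2.3% lower over all genes. The higher ones were the carboxylesterases Ces1d at 3.10, which mobilises triglyceride for VLDL, and Ces3a at 1.56. Both belong to a family of similar genes, and cross-hybridisation within it was not tested. Further genes of the list were singled out once their values were known. P4hb, whose product is the partner subunit of the Mttp protein, differed by 0.33 and the coat protein GTPase Sar1b by 0.11. The triglyceride-forming enzymes Dgat1 and Dgat2 differed by -0.18 and 0.01, and the lipid droplet protein Plin2 by 0.998, just under 2-fold. With normexp and the 75th percentile 1 gene of the list was above 2-fold.

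Of genes of plasma lipases and HDL remodelling, 5 of 12 measured on both arrays were at least 2-fold higher and 0 lower, with a median of 0.90. The count was 3 with array-median scaling and also with quantile-normalized normexp values. Angptl4, a secreted inhibitor of lipoprotein lipase, had a scaled signal of 25.1 in ob/ob cells and 2.61 in WT cells, a difference of 3.27. The phospholipid transfer protein Pltp was 1.62 higher, lipoprotein lipase Lpl 1.11 and the lysosomal lipase Lipa 1.02, close to the 2-fold line. Abcg8, a sterol exporter, was brighter in ob/ob cells by at least 3.46-fold.

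Of 15 lipoprotein receptor genes measured on both arrays, 4 were higher by 2-fold or more, 1 was lower by as much and 10 lay between, with a median of 0.10. The triglyceride-rich particle receptor Lsr was 2.29 higher, the heparan sulfate proteoglycan Sdc1 2.11, the remnant receptor Lrp1 1.94 and the macrophage receptor Apobr 1.53. Sorl1, a sorting receptor, was brighter in ob/ob cells by at least 3.77-fold.

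Of 27 transcriptional regulators of liver and lipid genes, coactivators and corepressors included, 20 were measured on both arrays, with 3 at least 2-fold higher, 0 lower and a median of 0.03. Creb3l3, a hepatic activator of Apoa4 and Apoc2, was 2.34 higher, the oxysterol receptor Nr1h3 2.10 and the hepatocyte factor Hnf4a 1.24. Hnf4a had scaled signals of 0.102 in ob/ob cells and 0.0434 in WT cells. With normexp and the 75th percentile 1 of the list was above 2-fold.

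Many markers of hepatocytes, macrophages and stellate cells were also higher in ob/ob cells. Of hepatocyte markers that are not apolipoproteins, 22 of 24 measured on both arrays were at least 2-fold higher and 0 lower, with a median of 2.46, and their summed scaled signal was 73.1 in ob/ob cells and 12.8 in WT cells. Cyp3a11 was 3.79 higher, the vitamin D carrier Gc 3.42, albumin Alb 3.15 and the asialoglycoprotein receptor Asgr1 3.08, and among the brightest Serpina1a differed by 2.01 and transferrin Trf by 2.64. Cps1 and Cyp7a1 were well above background on neither array. The difference of Apoa1, 0.16, lay below those of all 24 hepatocyte markers measured on both arrays, of which the lowest was 0.48, as did those of Apoe and Mttp. Apob, Apoc3 and Apoh lay above the median of the list. For Apob this turned with normexp, at 0.36 against a list median of 1.74 when scaled on the 75th percentile and 1.36 against 1.96 after quantile normalization. The part of hepatocyte RNA in these differences was not tested.

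Of macrophage markers, 16 of 19 were at least 2-fold higher (median 1.80), with a summed scaled signal of 185 in ob/ob cells and 66.2 in WT cells. Timd4 was 4.63 higher, Aif1 3.96, Vsig4 3.20 and Fcgr1 3.20, and the bright markers Marco 1.29 and Cd5l 1.31, while Cd163 was well above background on neither array. The WT scaled signal of Timd4, 0.0146, lay close to 0.0125, the dimmest well above background on that array. The size of the Timd4 difference is thus poorly bounded. Apoc1 at 1.61 lay near the macrophage median and Apoe at 0.32 below it. Of stellate cell markers 14 of 18 were higher (median 1.56, or 6 with normexp and the 75th percentile), with sums of 86.3 and 43.8. They included Col3a1 at 2.92, Rgs5 at 2.50 and Timp1 at 2.47, and Col1a1 was brighter in ob/ob cells by at least 8.12-fold, while the bright Dcn differed by 2.05 and Vim by 0.27. Of cholangiocyte markers 3 of 5 were higher, Spp1 at 3.73, Krt8 at 2.90 and Krt18 at 2.81, with sums of 5.56 and 0.608. Tspan8 and Cftr were within 2-fold, at 0.36 and -0.31. Krt19, Sox9, Epcam and Krt7 were measured in ob/ob cells alone, with bounds of only 1.87-, 1.55-, 1.05- and 1.01-fold. Cdh1 was brighter in ob/ob cells by at least 3.58-fold, and Cldn4, measured in WT cells alone, was dimmer in ob/ob cells by at least 9.58-fold. Of 8 enterocyte markers 1 was measured on both arrays, Fabp2 at 0.59, and Apoa4, also on that list, is given above. The part of these other cells in the differences was not tested.

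Sinusoidal and general endothelial markers were present, in keeping with the label of the cells. All 25 were measured on both arrays and all 25 were within 2-fold, as were most genes of the array (5.81% higher, 2.3% lower). Their median was -0.22, beside -0.12 for all genes, and 0.03 when centred on genes of like brightness. Summed scaled signals were 321 in ob/ob cells and 434 in WT cells. Egfl7 and Cdh5, among the brightest, differed by -0.58 and -0.44.

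**Figure D4:**
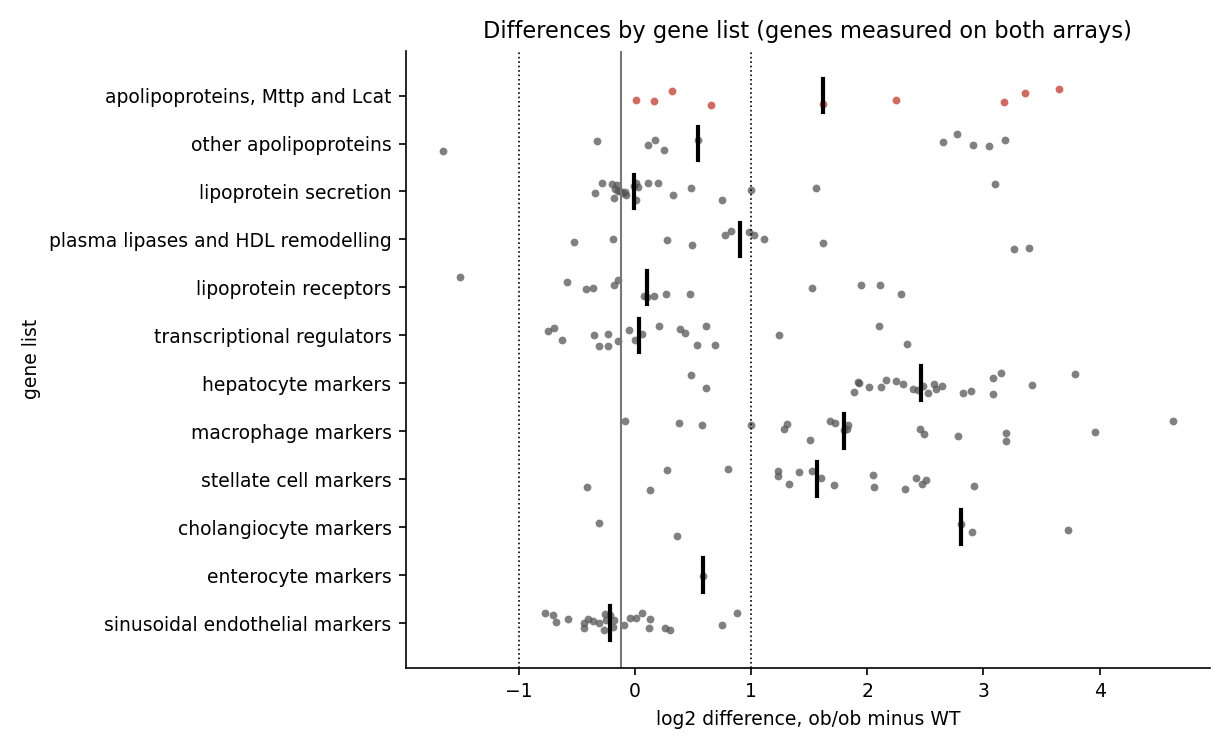
Log2 difference, ob/ob minus WT, of each gene measured on both arrays, by list, with black bars at the list median, a grey line at the median of all genes and dotted lines at 2-fold. The 9 lipoprotein genes (red) fall into a group of 4 under 1 and a group of 5 above 1.6, hepatocyte markers centre on 2.46 and endothelial markers on -0.22.

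Each difference was recomputed under 9 other processing settings. Apoa2, Apoc1, Apoc3 and Apoh were at least 2-fold higher in all 9, and Apob under 8 of 9. Apoe was positive and under 2-fold in all 9. Apoa1 was negative in 4 of 9, Mttp in 5 and Apom in 1.

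**Figure D5:**
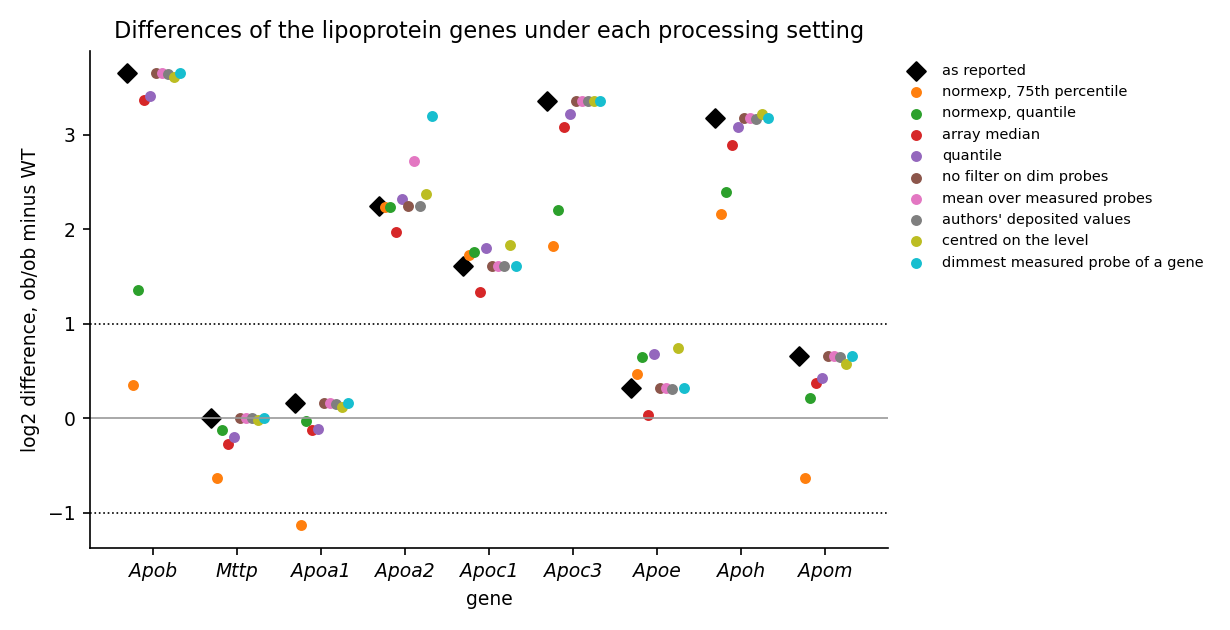
Log2 difference, ob/ob minus WT, of the 9 genes measured on both arrays as reported (black diamonds) and under 9 other processing settings (coloured points), with dotted lines at 2-fold. Apoa2, Apoc1, Apoc3 and Apoh stay above the upper line throughout, and Apob falls below it at 0.36 with normexp and the 75th percentile.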

How the data were processed

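The deposited intensity of each spot was made with Agilent Feature Extraction 11.0.1.1, per the submitters' processing notes. Per the file headers, these are 1-colour arrays with mm9 probe coordinates, and the software subtracted background and removed spatial and multiplicative trends. The authors' deposited value table holds, for 24868 features, the ratio of that intensity to the 75th percentile of the same array, as found from the values.

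Computed here were log2(processed intensity) minus log2 of the array's 75th percentile over non-control spots. Spots marked as outliers were dropped, spots of a probe averaged, and a gene was taken by its probe with the highest mean. A probe was measured where over 50% of its spots were well above background. Names were updated through RefSeq accessions (GRCm38.p6) for 26055 probes by the main accession and 102 by another, 8550 kept their name from the file, and 4722 had none. For 14 genes called below background by the brightest probe, another probe was measured. Both arrays lie on 1 slide. Normexp came from limma 3.58.1 in R 4.3.3, and all else from Python 3.11.15. The calculation was tested on simulated data. The simulated differences were placed in brighter genes only, so the test does not cover differences of dim genes such as Apob, Apoa1, Apom and Lcat. The named genes of each list are all those at least 2-fold apart where these are 6 or fewer, and otherwise the 4 largest in each direction and the 2 brightest. The genes and lists were chosen with earlier results of these data known. Some genes that this rule names are not reported here. A printed sequence comes from the scanner files (probes) or RefSeq (promoters).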

Additional observations from a re-analysis of the deposited data

How the results depend on the processing

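Of 9 other settings, 7 were planned and 2, centring on the signal level and the dimmest measured probe, were chosen after seeing the data. The count of the 10 genes at least 2-fold higher stayed at 4 or 5, with 1 gene, Apoa1, at least 2-fold lower with normexp and the 75th percentile. That setting also moved the median of the 9 genes to 0.47 and the bound for Lcat to -1.45, which is no bound. Over the array, normexp scaled on the 75th percentile gave 369 genes 2-fold or more higher and 3823 lower, quantile-normalized normexp values gave 508 and 130, leaving in dim probes gave 2682 and 1636, and array-median scaling gave 766 and 981. The cause of these shifts was not tested. No paired analysis was possible because each genotype has 1 array. The signal over background limits Apob and Lcat, which were at or near background on the WT array. The Apoa1 probe was dim on both arrays.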

Other observations

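Apobec1, the enzyme that edits Apob mRNA into the short apoB form, was measured on both arrays with a difference of 0.48, a scaled signal of 1.39 in ob/ob cells and 0.999 in WT cells. Its cofactor A1cf was well above background on neither array. Tm6sf2 and Cideb, which add lipid to VLDL, differed by 0.01 and 0.75. These genes were singled out after their values were seen.

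The sterol factor Srebf2 had probes that disagreed, with differences of -0.70 and 0.26. Abca1, the cholesterol exporter that starts HDL formation with apoA-I, differed by 0.27, and Abcg1 by 0.83. Nr1h3, a receptor that drives both, differed by 2.10, and Nr1h2, another regulator on its list, by -0.35. They too were chosen after their values were seen, and the differences have no replicate.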
